A study of Rattus norvegicus with 18 samples.

Results

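The genes of the Mediator complex were followed at the messenger RNA level in cultured ventricular cardiomyocytes from neonatal Wistar rats (postnatal day 3). Members were the rows of the deposited expression table whose symbol is Med with a number and an optional final l, together with Cdk8, Cdk19 and Ccnc. The rule found 32 of the 17303 rows of the table, of which 6 belong to the kinase module (Cdk8, Cdk19, Ccnc, Med12, Med12l and Med13) and 26 to the core. Med13l has no row of that symbol and was not analysed here. The study had 18 libraries in 6 groups of 3: phenylephrine (PE, 10 µM), PE with 10 µM Senexin A, PE with 50 µM Senexin A, Vehicle, 10 µM Senexin A alone and 50 µM Senexin A alone. PE is an agonist of alpha-1 adrenergic receptors that drives hypertrophic growth of such cells, and Senexin A inhibits the kinases CDK8 and CDK19. All groups shared the culture history, with 48 h in cytosine arabinoside (AraC), which kills dividing cells, then 24 h without serum and 48 h of treatment, with the medium replaced after 24 h. The labels gave replicate numbers but did not say whether the replicates were separate cultures, so p-values measure only the spread between these libraries, which may be technical. Polyadenylated RNA was sequenced, and levels are given in FPKM, fragments scaled by transcript length and library size, which can be compared between genes.

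Mediator is a large complex that carries signals from DNA-bound transcription factors to RNA polymerase II at promoters. Its head and middle contact the polymerase, its tail receives most activators, and MED14 is the backbone that joins them. The kinase module (CDK8 or CDK19, cyclin C, MED12 or MED12L, and MED13 or MED13L) docks on the core through MED13 and, while bound, blocks the core from engaging the polymerase. The kinase itself phosphorylates transcription factors and is the target of Senexin A. The question here was whether the transcripts of the target kinase, its partners and the core moved together or apart when growth was stimulated and the kinase was inhibited.

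The promoters of 27 of the 32 members were found in the RefSeq promoter table (build GRCr8), as windows of 300 bases with 250 before and 50 after the annotated start. Those of Med1, Med15, Med18, Med27 and Med30 were not. Shown are the windows of Ccnc, the kinase module gene that was higher at 50 µM both with and without PE, of Med10 and Med21, which were higher with PE and with 50 µM, and of Med31, which was lower with PE. Capitals mark matches to the motifs searched, on either strand. The ETS motif was searched as CCGGAAG and the SP1 motif as GGGCGG, and the CCAAT box as the letters of its name. The cyclic AMP response element (CRE) was searched as TGACGTCA and the ATF4-C/EBP motif as TGATGNAAT. The TATA box was searched as TATAAA and the E-box as CACGTG. The YY1 motif was searched as AAGATGGCG and the NRF1 motif as GCGCATGCG. No 2 of these motifs are nested in each other.
Ccnc, chr5:40063433-40063732, plus strand: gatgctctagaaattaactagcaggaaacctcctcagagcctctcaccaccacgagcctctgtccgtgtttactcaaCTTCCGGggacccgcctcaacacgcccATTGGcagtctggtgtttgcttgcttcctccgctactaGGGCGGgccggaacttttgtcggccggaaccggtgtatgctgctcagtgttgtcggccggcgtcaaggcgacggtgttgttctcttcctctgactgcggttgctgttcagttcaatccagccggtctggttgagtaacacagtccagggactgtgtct
Med10, chr1:35304105-35304404, minus strand: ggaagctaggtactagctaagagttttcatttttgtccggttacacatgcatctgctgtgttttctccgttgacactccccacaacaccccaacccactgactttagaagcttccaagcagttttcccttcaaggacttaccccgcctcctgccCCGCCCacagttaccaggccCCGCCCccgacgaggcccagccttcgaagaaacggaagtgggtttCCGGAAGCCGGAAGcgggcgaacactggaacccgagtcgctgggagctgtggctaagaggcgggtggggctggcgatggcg
Med21, chr4:181291024-181291323, plus strand: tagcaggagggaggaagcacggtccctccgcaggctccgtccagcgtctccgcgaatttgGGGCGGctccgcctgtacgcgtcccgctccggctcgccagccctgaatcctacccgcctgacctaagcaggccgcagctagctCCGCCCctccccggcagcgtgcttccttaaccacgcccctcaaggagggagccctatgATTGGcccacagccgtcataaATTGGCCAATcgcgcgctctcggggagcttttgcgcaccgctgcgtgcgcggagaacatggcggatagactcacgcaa
Med31, chr10:57338840-57339139, minus strand: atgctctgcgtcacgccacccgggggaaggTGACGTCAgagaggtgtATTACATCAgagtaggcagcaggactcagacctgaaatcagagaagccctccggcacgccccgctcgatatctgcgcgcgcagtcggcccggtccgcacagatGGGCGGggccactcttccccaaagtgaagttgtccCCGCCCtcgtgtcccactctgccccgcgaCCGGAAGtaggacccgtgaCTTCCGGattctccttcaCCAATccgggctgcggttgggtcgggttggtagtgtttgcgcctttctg

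The ETS letters stood in the Ccnc, Med10 and Med31 windows, with 2 abutting copies in Med10. They were in 22.2% of the 27 members (Ccnc, Med6, Med10, Med17, Med19 and Med31), against 8.7% of all 33469 promoter windows of the table. Members were counted as genes, and the table as windows of any gene, expressed here or not. The SP1 letters, which are part of many GC-rich promoters, were in 74.1% of members and 33.1% of all windows, and the CCAAT letters in 44.4% and 37.5%. The TATA letters were in 3.7% of members (Med16 alone) and 14.2% of all windows. Med31 was the member with the CRE letters (1.8% of all windows) and also the member with the ATF4-C/EBP letters (1.1% of all windows). The NRF1 letters were in Med4, Med7 and Med26 (1.5% of all windows), the YY1 letters in Med12 and Med24 (1.7%), and the E-box letters in Med6, Med16 and Med28 (6.4%). These are matches of letters, not measured binding, and the ETS letters stood both in genes with a rise and in Med31, which fell with PE.

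Of the 32 members, 31 passed the filter for testing (at least 1 FPKM in at least 3 libraries) and Med22, a head subunit, was listed at the table's floor of 0.01 FPKM in all 18 libraries, so no level can be given for it. Averaged over all libraries, the middle subunits held the 3 highest levels: Med21 at 70.7 FPKM, Med10 at 50.5 and Med31 at 40.7. Med21 stood at the 84.7th percentile of all 10478 rows tested. MED21 pairs with MED7 at the hinge of the middle in yeast, and MED10 and MED31 are small middle subunits. In the same module Med4 averaged 26.8, Med9 22.5, Med7 19.7, Med1 17.3 and Med19 16.5 FPKM, whereas Med26, the subunit that passes elongation factors to the polymerase, was at 2.61.

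The other core modules were between these extremes. In the head, Med20 (28.7 FPKM) and Med6 (28.6) were well above Med8 (10.4), Med18 (9.45), Med11 (8.28) and Med17 (6.04), although MED17 is the subunit around which the head is built. In the tail the means were 26.9 for Med25, 21.9 for Med16, 20.3 for Med24, 17.0 for Med15 and 10.7 for Med23. The 4 subunits at the border of head and tail were close together, at 23.7 FPKM for Med27, 27.7 for Med29, 28.6 for Med28 and 30.8 for Med30, and Med14, the backbone, was at 14.3. In the kinase module Ccnc (19.0 FPKM) and Cdk8 (14.0) exceeded Med13 (8.09), Med12 (7.08) and Cdk19 (6.53), and Med12l was the lowest of the 31 at 1.36. The locus of Med16 overlaps 15 other rows of the table and that of Med19 overlaps Tmx2, so the values of both are uncertain. The locus of Med8 spans only 885 bases, and its libraries were widely spread.

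**Figure D1:**
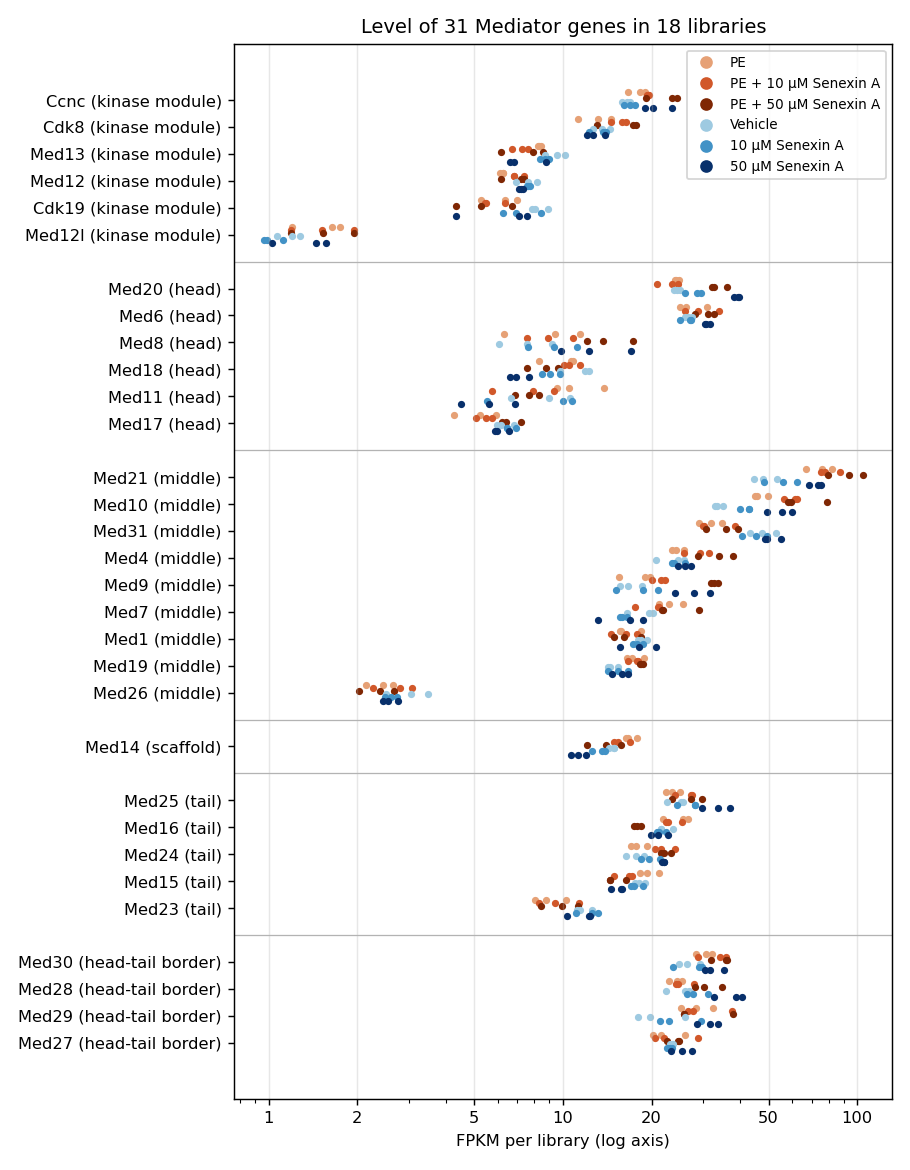
Level of each of the 31 Mediator genes in each of the 18 libraries, in FPKM on a log axis; rows are genes grouped by module and colours are the 6 groups. Med21, Med10 and Med31 lie farthest to the right, and Med12l and Med26 farthest to the left.

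The summed FPKM of a library ran from 610324 to 910958, and the 10 highest rows took 9.64% to 20.7% of it, while the median of the tested rows stayed between 14.9 and 15.9 FPKM. Cardiomyocyte markers (10 genes, none at the floor) were high in each library, but their sum moved with the groups. It was 98376 to 116742 FPKM with PE, 80039 to 100353 with PE and 10 µM, 53203 to 67172 with PE and 50 µM, 37360 to 52700 in Vehicle, 55264 to 70937 at 10 µM alone and 39555 to 61530 at 50 µM alone. The 10 genes did not move alike. In PE with 50 µM against PE, 4 had a positive and 6 a negative change (median log2 change -0.26). For 50 µM against Vehicle, 6 were positive and 4 negative (median 0.04). Markers of other cells also moved with the groups. The summed 9 fibroblast markers ran from 1189 to 1961 FPKM with PE, 862 to 1750 with PE and 10 µM, 621 to 1224 with PE and 50 µM, 1781 to 3086 in Vehicle, 1667 to 3209 at 10 µM alone and 976 to 1332 at 50 µM alone. Col1a1 and Col3a1 made up most of this sum, averaging 634 and 576 FPKM with PE and 282 each with PE and 50 µM. Of the 8 fibroblast markers tested, 4 had a positive and 4 a negative change in PE with 50 µM against PE (median log2 change -0.01). For 50 µM against Vehicle, 1 was positive and 7 were negative (median -0.24). Endothelial markers (7 genes) summed to 1.69 to 3.26 FPKM with PE and 50 µM against 5.23 to 7.72 with PE, and to 1.09 to 4.19 at 50 µM alone against 4.597 to 7.49 in Vehicle. Smooth muscle and pericyte markers (5 genes) summed to 150.4 to 204 FPKM with PE and 50 µM against 291 to 488 with PE, and to 104 to 199 at 50 µM alone against 193 to 336 in Vehicle. Much of this difference lay in Cnn1, which averaged 72.2 FPKM with PE and 50 µM against 264 with PE. Cnn1 averaged 39.8 FPKM at 50 µM alone against 124 in Vehicle. Of these 5 markers, 1 had a positive and 4 a negative change in each of these comparisons. Macrophage markers (7 genes) summed to 5.33 to 41.1 FPKM over all groups, which overlapped, and none of these genes was at the floor in all libraries. Their part in the results below was not tested, and in bulk RNA fewer cells of a type and less RNA per cell cannot be told apart.

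The kinase module genes differed in the comparisons in which they passed the test. Ccnc (cyclin C, which activates CDK8 and CDK19) was the kinase module transcript that was higher at 50 µM in both backgrounds. With PE it had 16.7, 19.0 and 18.3 FPKM, with PE and 10 µM 19.3, 19.4 and 19.7, and with PE and 50 µM 23.4, 24.4 and 19.2. Without PE it had 15.9, 16.4 and 17.0 FPKM in Vehicle, 16.8, 17.6 and 16.1 at 10 µM and 19.0, 23.4 and 20.2 at 50 µM. All 50 µM libraries were above their untreated counterparts in each background. These groups did not overlap for 62.1% of all rows with PE and 64.8% without. On the log2(FPKM + 1) scale used for all changes below, the difference was 0.29 ± 0.09 (SE) for PE with 50 µM against PE (limma adjusted p = 0.012) and 0.32 ± 0.09 for 50 µM against Vehicle (limma adjusted p = 0.00575). The first of these calls was lost without PE replicate 1 (adjusted p = 0.0568) or without PE with 50 µM replicate 2 (0.0649), in limma fits of the remaining libraries. With 10 µM the differences were 0.11 ± 0.09 with PE and 0.03 ± 0.09 without, and neither passed.

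Cdk8 itself differed little without PE. It had 13.5, 12.6 and 14.5 FPKM in Vehicle, 14.0, 13.7 and 12.3 at 10 µM and 12.6, 13.9 and 12.03 at 50 µM, and the groups overlapped. With PE alone it had 13.2, 11.3 and 14.5 FPKM, with 10 µM added 15.8, 16.4 and 14.6, and with 50 µM added 17.2, 17.7 and 13.03. The difference of PE from Vehicle was -0.06, with a 95% interval from -0.30 to 0.18, and that of 50 µM from Vehicle was -0.07 (-0.31 to 0.17). For PE with 50 µM against PE it was 0.28 ± 0.11, past the threshold (limma adjusted p = 0.0455) although the groups overlapped through PE with 50 µM replicate 3. That call was lost without PE replicate 1 or 2 (adjusted p = 0.0724 and 0.208), without PE with 50 µM replicate 1 or 2 (0.158 and 0.184), with no filter (0.0636) and when limma saw only the groups compared (0.126). The change of Cdk8 with 50 µM in PE minus that in Vehicle was 0.35 ± 0.16, which did not pass (limma interaction adjusted p = 0.212).

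Cdk19, the paralog of Cdk8, had its highest levels in Vehicle, and whether it passed the test depended on the fit. It had 6.33, 5.25 and 6.99 FPKM with PE, 5.44, 5.50 and 6.33 with PE and 10 µM, and 5.27, 4.34 and 6.72 with PE and 50 µM. Without PE it had 7.87, 8.05 and 8.90 FPKM in Vehicle, 6.92, 6.25 and 8.41 at 10 µM and 7.57, 4.34 and 7.07 at 50 µM. All libraries with PE and all at 50 µM were below all Vehicle libraries, and the PE libraries with and without Senexin A overlapped. Groups did not overlap for 47.7% of all rows in PE against Vehicle and for 64.8% in 50 µM against Vehicle. The difference from Vehicle was -0.37 ± 0.17 for PE (limma adjusted p = 0.106) and -0.37 ± 0.17 for 50 µM (limma adjusted p = 0.0711), neither past the threshold. With the replicate number as a block, which the check of pairing called for, limma gave Cdk19 adjusted p-values of 0.0164 and 0.00998. Without the block, PE against Vehicle passed in the compared groups only (0.0439), and 50 µM against Vehicle without 50 µM replicate 1 (0.0283). The ratio of Cdk8 to Cdk19 FPKM averaged 2.10 with PE, 2.73 with PE and 10 µM and 3.10 with PE and 50 µM, and 1.64, 1.89 and 2.19 in the matching groups without PE. In the 50 µM groups single libraries ranged from 1.94 to 4.08 with PE and from 1.67 to 3.20 without.

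Of the 3 larger subunits, Med12 and Med13 each passed the threshold in 1 comparison. Med12, whose product activates the kinase together with cyclin C, had 6.27, 6.09 and 6.25 FPKM with PE, 6.81, 7.38 and 6.82 with PE and 10 µM, and 7.36, 6.14 and 7.23 with PE and 50 µM. Its levels without PE were 7.59, 6.90 and 8.17 FPKM in Vehicle, 7.59, 7.54 and 7.71 at 10 µM and 7.20, 7.07 and 7.34 at 50 µM. The PE libraries lay below those of Vehicle (these groups did not overlap for 47.7% of all rows), with a difference of -0.25 ± 0.08 (limma adjusted p = 0.0304). Only the fit without Vehicle replicate 2 kept this call among the 6 that left out 1 library, and the others gave limma adjusted p-values from 0.0595 (without PE replicate 3) to 0.136 (without Vehicle replicate 3). It was lost as well after quantile normalization (0.0821) and in the compared groups only (0.0825).

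Med13, which tethers the module to the core, had 8.26, 8.45 and 8.204 FPKM with PE, 6.72, 7.60 and 7.28 with PE and 10 µM, and 7.90, 6.16 and 8.52 with PE and 50 µM. It had 8.69, 9.53 and 10.1 FPKM in Vehicle, 8.98, 8.70 and 8.36 at 10 µM and 6.62, 6.82 and 8.75 at 50 µM. The difference of 50 µM from Vehicle was -0.32 ± 0.11 (limma adjusted p = 0.0191), with the highest 50 µM library inside the Vehicle range. Without Vehicle replicate 3, 50 µM replicate 1 or 50 µM replicate 2, limma gave adjusted p-values of 0.0748, 0.0816 and 0.0725 for Med13, and it gave 0.153 after quantile normalization and 0.0566 in the compared groups only. Med12l, the paralog of Med12, had at most 1.95 FPKM in any library and passed no test: its PE libraries held 1.74, 1.20 and 1.64 FPKM and its Vehicle libraries 1.28, 1.07 and 1.20.

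**Figure D2:**
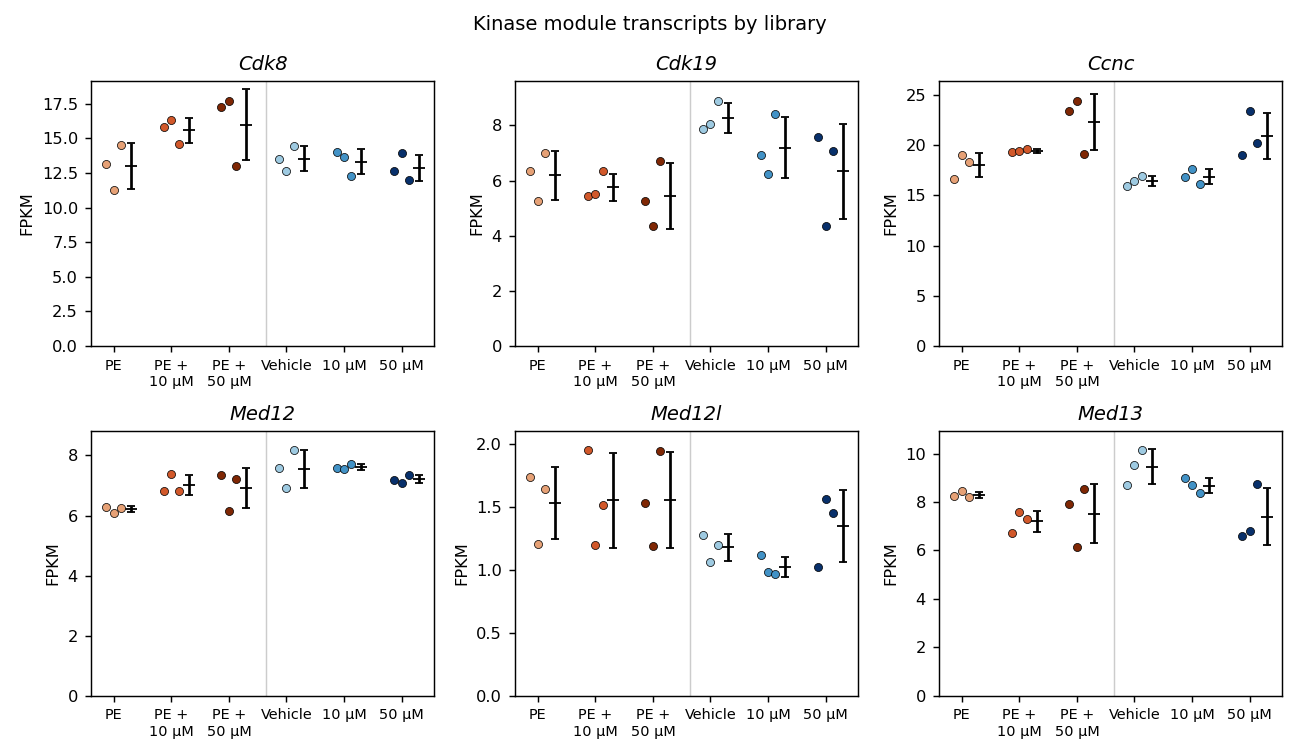
FPKM of the 6 kinase module genes in each library (points), with the mean and SD of the 3 libraries of a group (bar); groups with PE are on the left of each panel and groups without on the right, in order of Senexin A dose. Ccnc is highest in the 50 µM groups, Cdk19 is highest in Vehicle, and Med12l stays under 2 FPKM.

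The first comparison asked what hypertrophic stimulation did to the complex. With PE, 6 of 31 Mediator genes passed the threshold (adjusted p under 0.05), 3 higher and 3 lower, which is 19.4% of them against 30.6% of all rows tested (17.9% higher and 12.7% lower). The median change of the 31 genes was 0.03 and that of all rows -0.01. The members that moved most were middle subunits, and they moved in opposite directions. Med21 had 82.1, 76.0 and 66.9 FPKM with PE, against 53.3, 47.8 and 44.6 in Vehicle. Med10 had 49.6, 45.1 and 45.5 FPKM with PE, against 35.1, 33.4 and 32.7 in Vehicle. The groups did not overlap for either gene (nor for 47.7% of all rows), and the changes were 0.62 ± 0.11 for Med21 (limma adjusted p = 0.000713) and 0.46 ± 0.10 for Med10 (limma adjusted p = 0.00257).

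Med31 went the other way, with 29.1, 34.7 and 31.8 FPKM with PE against 47.4, 43.3 and 53.0 in Vehicle. Its change was -0.57 ± 0.12 (limma adjusted p = 0.00159), and every PE library was below every Vehicle library (47.7% of all rows did not overlap). Med23, a tail subunit that receives signals from the transcription factor ELK1, had 8.04, 8.77 and 10.2 FPKM with PE against 11.5, 11.2 and 12.6 in Vehicle, a change of -0.35 ± 0.12 (limma adjusted p = 0.0403). Med19 had 17.2, 18.9 and 16.5 FPKM with PE against 15.3, 14.2 and 14.4 in Vehicle, a change of 0.24 ± 0.07 (limma adjusted p = 0.0227) in a row that shares its locus. The calls for Med10, Med21 and Med31 held in all 6 other settings and in all 6 fits without 1 library. That of Med23 was lost with no filter and without PE replicate 1 or 2 or any 1 Vehicle library (limma adjusted p up to 0.155), and that of Med19 in the compared groups only and without PE replicate 2 or Vehicle replicate 2 or 3 (up to 0.106). The number of Mediator genes called fell to 3 without PE replicate 2 and to 3 without Vehicle replicate 3.

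With the replicate block, 9 Mediator genes passed in PE against Vehicle, with 42.2% of all rows. Besides Cdk19 the block added Med17, at -0.26 ± 0.10 (limma adjusted p = 0.0343 with the block and 0.0627 without), and Med29, at 0.42 ± 0.17 (0.000543 and 0.0743). The SEs given beside these and later block p-values are those of the fit without the block. Med10 and Med21 were also higher in PE with 10 µM than in 10 µM alone, by 0.50 ± 0.10 and 0.52 ± 0.11 (limma adjusted p = 0.00124 and 0.00223). Med31 was lower in PE with 10 µM than in 10 µM alone by 0.45 on the log2 scale, a change of -0.45 ± 0.12 (limma adjusted p = 0.00745), and in PE with 50 µM against 50 µM alone by -0.52 ± 0.12 (limma adjusted p = 0.00624). At 10 µM this comparison held 4 called members of 31 (32.5% of all rows were called), and 12 with the block (44.3% of all rows). At 50 µM it held 5 (14.3% of all rows), and 11 with the block (23.8% of all rows). The others without the block were Med20 (-0.28) at 10 µM, and Med7 (0.55), Med4 (0.35), Med14 (0.28) and Med25 (-0.31) at 50 µM.

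The calls at 50 µM other than that of Med31 were lost in some fits. That of Med7 was lost without PE with 50 µM replicate 1 (limma adjusted p = 0.0755), and those of Med4 and Med25 without PE with 50 µM replicate 1 or 2 or 50 µM replicate 1 or 3 (limma adjusted p up to 0.13 and 0.175). That of Med14 was lost without PE with 50 µM replicate 1 or 3 or 50 µM replicate 1 or 2. In the compared groups only, limma gave adjusted p-values of 0.0755 for Med7, 0.107 for Med4, 0.16 for Med25 and 0.217 for Med14. With no filter Med25 and Med14 did not pass (0.0569 and 0.0535), after quantile normalization Med4 and Med14 did not (0.0581 and 0.0545), and after median-ratio scaling Med14 did not (0.0511). Without PE with 50 µM replicate 1 the number of Mediator genes called was 1, and without 50 µM replicate 1 it was 2. These comparisons hold libraries of the Senexin A groups and none of PE or Vehicle.

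**Figure D3:**
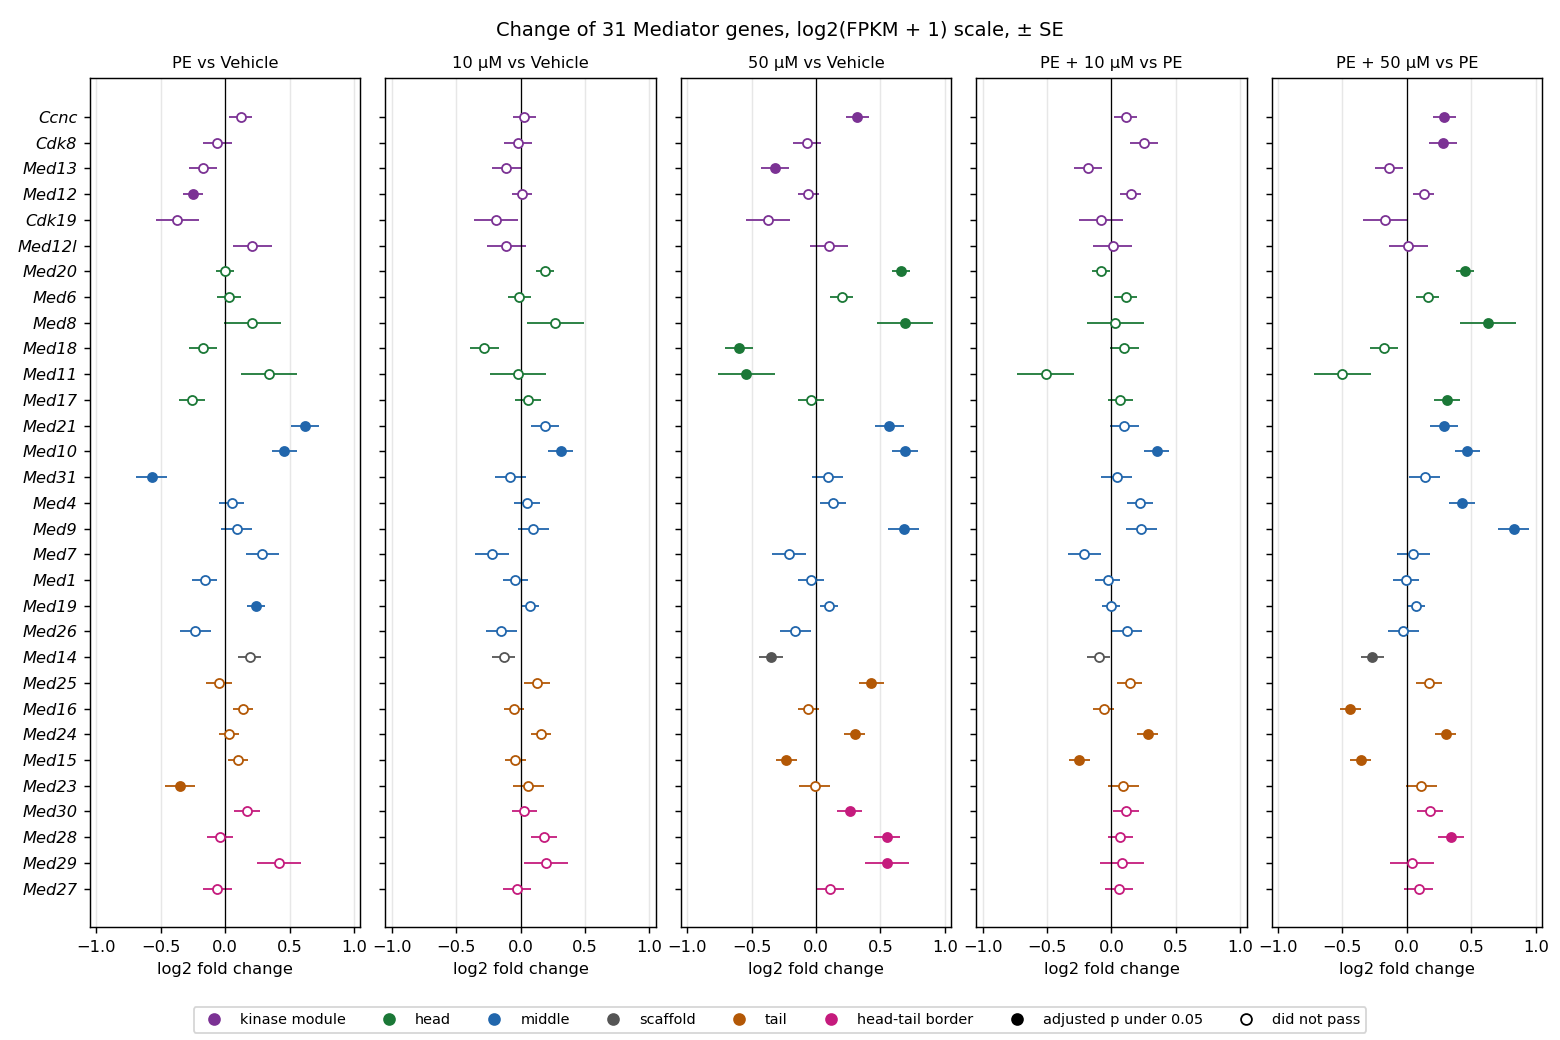
Change of each of the 31 Mediator genes in the 5 main comparisons, on the log2(FPKM + 1) scale with its SE; filled points passed limma's adjusted p under 0.05 and colours are modules. Med21 and Med10 stand right of 0 and Med31 left of it in PE against Vehicle, and both 50 µM panels hold filled points on both sides.

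The second question was what the kinase inhibitor did to the complex at the lower dose. At 10 µM alone, 1 of 31 members passed, with 16.2% of all rows, and it was Med10, with 40.1, 43.0 and 43.0 FPKM at 10 µM against 35.1, 33.4 and 32.7 in Vehicle. The change was 0.31 ± 0.10 (limma adjusted p = 0.0442). This call stood close to the threshold: it was lost with no filter (0.06) and without any 1 of the 6 libraries (0.0624 to 0.126). Then 0 members passed, except without 10 µM replicate 3, where another did. With PE, 3 of 31 passed, with 17% of all rows. Med10 had 62.5, 61.3 and 56.3 FPKM with PE and 10 µM against 49.6, 45.1 and 45.5 with PE, a change of 0.35 ± 0.10 (limma adjusted p = 0.0226). Med24, a tail subunit, had 24.0, 20.6 and 21.6 FPKM with PE and 10 µM against 17.8, 17.0 and 19.3 with PE, a change of 0.28 ± 0.08 (limma adjusted p = 0.0221). Med15, the tail subunit that binds sterol-regulatory factors, had 17.2, 14.9 and 16.8 FPKM with PE and 10 µM against 18.3, 21.2 and 19.3 with PE, a change of -0.25 ± 0.08 (limma adjusted p = 0.0342).

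None of these 3 genes overlapped between PE with 10 µM and PE, like 36% of all rows, but each call was lost in some fits without 1 library. For Med10 these were the fits without PE replicate 2 or 3 or PE with 10 µM replicate 1 or 2 (limma adjusted p from 0.0674 to 0.0831). For Med24 they were those without PE replicate 1 or 2 or PE with 10 µM replicate 1 (up to 0.109), and for Med15 those without PE replicate 2 or 3 or PE with 10 µM replicate 2 (up to 0.145). The calls of Med24 and Med15 were lost in the compared groups only as well (0.0777 and 0.107). The number of Mediator genes called was 0 without PE replicate 2 and 1 without PE replicate 3, PE with 10 µM replicate 1 or PE with 10 µM replicate 2. With the block 5 members passed, with 27.9% of all rows, and the added genes were Med4 at 0.22 ± 0.10 (limma adjusted p = 0.0314 with the block) and Med9 at 0.23 ± 0.12.

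At 50 µM alone, 16 of 31 Mediator genes passed, 11 higher and 5 lower, which is 51.6% of them against 60.7% of all rows (30.5% higher and 30.2% lower). The median change was 0.10 for the 31 genes and -0.01 for all rows. The higher members came from every module but the backbone: Med8 and Med20 of the head, Med9, Med10 and Med21 of the middle, Med24 and Med25 of the tail, Med28, Med29 and Med30 of the border, and Ccnc of the kinase module. The lower ones were Med11 and Med18 of the head, Med14, Med15 of the tail and Med13 of the kinase module. Med10 had 49.5, 59.9 and 55.6 FPKM at 50 µM against 35.1, 33.4 and 32.7 in Vehicle, a change of 0.69 ± 0.10 (limma adjusted p = 2.01e-05). Med9, which pairs with MED4 in the middle, had 23.9, 28.0 and 31.6 FPKM at 50 µM against 15.6, 18.5 and 16.6 in Vehicle, a change of 0.68 ± 0.12 (limma adjusted p = 0.000118). Med8 had 12.2, 17.0 and 9.82 FPKM at 50 µM against 7.52, 6.04 and 9.21 in Vehicle, a change of 0.69 ± 0.22 (limma adjusted p = 0.0124). For all 3 genes the groups were separate, by a narrow margin for Med8, as they were for 64.8% of all rows.

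Within the head, members that touch had calls in opposite directions at 50 µM alone. In yeast MED18 and MED20 form a pair that is anchored by MED8, and here Med18 was lower and the other two were higher. Med18 had 7.64, 6.63 and 6.95 FPKM at 50 µM against 9.77, 12.3 and 11.9 in Vehicle, a change of -0.60 ± 0.11 (limma adjusted p = 0.000239). Med20 had 39.6, 39.3 and 38.2 FPKM at 50 µM against 25.01, 23.9 and 24.3 in Vehicle, a change of 0.66 ± 0.07 (limma adjusted p = 8.37e-07). Both pairs of groups were separate, as they were for 64.8% of all rows. In PE with 50 µM against PE, Med18 changed by -0.18 ± 0.11 with overlapping groups and did not pass (limma adjusted p = 0.193). Med11 had 5.59, 4.51 and 6.87 FPKM at 50 µM against 8.95, 6.67 and 10.6 in Vehicle, overlapping groups with a change of -0.54 ± 0.22 (limma adjusted p = 0.0443). Med14 had 10.7, 11.3 and 11.96 FPKM at 50 µM against 14.9, 14.3 and 14.9 in Vehicle, a change of -0.35 ± 0.09 (limma adjusted p = 0.00214), with separate groups.

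The other called members at 50 µM alone were Med21 (0.57), Med28 (0.55), Med29 (0.55), Med25 (0.43), Med24 (0.30) and Med30 (0.26), all higher, and Med15 (-0.23), which was lower. The calls of Ccnc, Med9, Med10, Med14, Med18, Med20, Med21, Med24, Med25 and Med28 held in all 6 other settings and in all fits without 1 library. The call of Med8 was lost without Vehicle replicate 2 or 50 µM replicate 2 (limma adjusted p = 0.0619 and 0.0762), that of Med15 without the same 2 libraries (0.0593 and 0.0644) and that of Med29 without Vehicle replicate 3 (0.0592). The call of Med30 was lost without Vehicle replicate 1 or 3 or 50 µM replicate 1 or 3 (limma adjusted p up to 0.132) and after quantile normalization (0.10), and that of Med11 without Vehicle replicate 1 or 3 or 50 µM replicate 1 or 2, after quantile normalization and with no filter (up to 0.174). With the block 18 members passed, with 67.5% of all rows. It added Cdk19 and the head subunit Med6, with Med6 at 0.20 ± 0.09 (limma adjusted p = 0.0287 with the block, 0.0739 without and 0.0428 in the compared groups only). Against 10 µM alone, 50 µM had 10 of 31 members called, 7 higher and 3 lower, with 50.4% of all rows (25.4% higher and 24.9% lower), and 6 without 10 µM replicate 3 or without 50 µM replicate 2. With the block 14 passed, with 59.2% of all rows, and it added Med6, Med29 and Med30, higher, and Med11, lower.

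With PE present, 50 µM Senexin A changed 14 of 31 members, 11 higher and 3 lower, which is 45.2% of them against 56.7% of all rows (29.3% higher and 27.4% lower). The median change was 0.13 for the 31 genes and 0.00 for all rows. Med9 had 31.9, 33.6 and 32.7 FPKM with PE and 50 µM against 15.6, 19.0 and 19.8 with PE, a change of 0.83 ± 0.12 (limma adjusted p = 2.17e-05). Med8 had 12.05, 17.3 and 13.7 FPKM with PE and 50 µM against 6.30, 9.40 and 11.4 with PE, a change of 0.63 ± 0.22 (limma adjusted p = 0.0216). Med10 had 59.5, 79.1 and 58.2 FPKM with PE and 50 µM against 49.6, 45.1 and 45.5 with PE, a change of 0.47 ± 0.10 (limma adjusted p = 0.000817). The groups were separate for all 3 and for 62.1% of all rows, and PE with 50 µM replicate 2 was the highest library for Med8 and Med10.

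The lower members with PE and 50 µM were the backbone and a pair of tail subunits. Med16 had 17.5, 18.4 and 17.8 FPKM with PE and 50 µM against 26.7, 25.6 and 21.8 with PE, a change of -0.44 ± 0.08 (limma adjusted p = 0.000207) in a row that overlaps other rows. Med15 had 16.3, 14.5 and 14.5 FPKM with PE and 50 µM against 18.3, 21.2 and 19.3 with PE, a change of -0.36 ± 0.08 (limma adjusted p = 0.000993). Med14 had 15.8, 12.04 and 14.0 FPKM with PE and 50 µM against 16.4, 16.7 and 17.9 with PE, a change of -0.27 ± 0.09 (limma adjusted p = 0.0135). The groups were separate for each of the 3, as they were for 62.1% of all rows. The other higher members were Med20 (0.45), Med4 (0.43), Med28 (0.34), Med17 (0.31), Med24 (0.30) and Med21 (0.29), besides Ccnc and Cdk8.

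Calls of Med4, Med9, Med10, Med15, Med16, Med20 and Med24 with PE and 50 µM held in all 6 other settings and in all fits without 1 library. Without PE with 50 µM replicate 2 the number of Mediator genes called was 9, and limma gave adjusted p-values of 0.0982 for Med8, 0.0608 for Med28, 0.0856 for Med14 and 0.162 for Med21. The call of Med8 was lost also without PE replicate 1 (0.124), that of Med14 without PE replicate 3 (0.0559), that of Med17 without PE replicate 1 or PE with 50 µM replicate 1 (0.0894 and 0.0659) and that of Med21 without PE replicate 2 or 3 or PE with 50 µM replicate 1 (up to 0.151 for those). In the compared groups only, Med14, Med17 and Med21 did not pass (0.0612, 0.0714 and 0.0607), and Med21 did not after quantile normalization (0.112). With the block 15 members passed, with 64% of all rows, and it added Med11, at -0.50 ± 0.22 (limma adjusted p = 0.0418, and 0.0164 without the block in the compared groups only). Against PE with 10 µM, 5 of 31 passed, with 41.2% of all rows: Med9 (0.60), Med8 (0.60), Med20 (0.53) and Med28 (0.26) were higher and Med16 (-0.37) was lower. The calls of Med28 and Med8 were each lost without 4 of the 6 libraries (limma adjusted p up to 0.212 for Med28 and 0.148 for Med8). With no filter neither passed (0.0664 and 0.0644), and Med28 did not after quantile normalization (0.0796), after median-ratio scaling (0.0506) or in the compared groups only (0.0803). The number called was 3 without PE with 10 µM replicate 1 or PE with 50 µM replicate 2. With the block 7 passed, with 50.9% of all rows, and it added Med4 and Med17, both higher.

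Whether PE altered the response of a member to Senexin A was tested by interaction terms. At 10 µM, 0 of 31 members passed in limma (0.305% of all rows did), with 2 at an unadjusted p under 0.05. At 50 µM, 0 of 31 passed (7.01% of all rows), with 4 at an unadjusted p under 0.05. Without PE replicate 3, 1 member passed at 50 µM, which was Med16 (limma adjusted p = 0.0205), and it passed after median-ratio scaling as well (0.0494). With the block 2 members passed at 50 µM, when 16.1% of all rows did. Med16 was one of them, at -0.37 (limma adjusted p = 0.0268 with the block and 0.0558 without). The other was Med29, at -0.51 (0.0058 and 0.234). Med29 had 25.8, 37.7 and 25.7 FPKM with PE and 50 µM against 28.2, 32.4 and 25.3 with PE, and 31.7, 33.5 and 28.6 at 50 µM alone against 19.7, 26.0 and 17.99 in Vehicle. Replicate 2 was the highest library of each of these 4 groups.

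The kinase module was then set against the core by sums of FPKM, which weigh abundant genes most. The 6 kinase module genes summed to 51.3 to 56.0 FPKM with PE, 56.0 to 57.4 with PE and 10 µM and 56.6 to 62.7 with PE and 50 µM. Without PE the sum was 54.6 to 59.8 in Vehicle, 53.8 to 55.4 at 10 µM and 54.0 to 57.2 at 50 µM. The kinase sums overlapped between 50 µM and Vehicle and between PE and Vehicle. With PE, those at 10 and 50 µM were above all of PE alone, by little at 10 µM. The 25 core genes tested summed to 552 to 574 FPKM with PE, 566 to 622 with PE and 10 µM and 620 to 686 with PE and 50 µM, and to 507 to 523 in Vehicle, 524 to 558 at 10 µM and 620 to 637 at 50 µM. The core sum was above the whole Vehicle range in all libraries of the other groups, by little at 10 µM, and 50 µM was above its untreated counterpart in both backgrounds. The summed FPKM of all rows averaged 635959 in Vehicle, 838471 with PE, 723964 at 10 µM and 783812 at 50 µM. With PE and 10 or 50 µM it averaged 863622 and 827064. Its part in the core sums was not tested. Med21, Med10 and Med31, the highest core genes, averaged 75.0, 46.8 and 31.8 FPKM with PE against 48.5, 33.7 and 47.9 in Vehicle.

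As a percentage of the core sum, the kinase module stood at 9.501 ± 0.603 with PE, 9.57 ± 0.344 with PE and 10 µM and 9.24 ± 0.565 with PE and 50 µM (mean ± SD, n = 3 each). It stood at 10.9 ± 0.742 in Vehicle, 10.1 ± 0.407 at 10 µM and 8.92 ± 0.181 at 50 µM. The log2 of the kinase to core ratio was taken in each library and averaged by group. The difference in this mean was -0.20 for PE, -0.11 for 10 µM and -0.29 for 50 µM, each against Vehicle. It was 0.01 and -0.04 for PE with 10 µM and PE with 50 µM against PE. These differences are given without a test, since the members were chosen with results known. The middle module summed to 273 to 294 FPKM at 50 µM against 220 to 234 in Vehicle, and to 246 to 263 with PE. The subunits at the border of head and tail summed to 120.2 to 129.8 FPKM at 50 µM against 88.8 to 104 in Vehicle, and the head to 98.6 to 105 against 81.5 to 88.8. The tail summed to 96.7 to 108 FPKM at 50 µM against 92.7 to 95.9 in Vehicle. Without Ccnc, the highest kinase module gene, the difference in mean log2 ratio was -0.30 for PE, -0.15 for 10 µM and -0.47 for 50 µM against Vehicle. It was 0.00 for PE with 10 µM and -0.12 for PE with 50 µM against PE. The mean log2(FPKM + 1) of the kinase module genes minus that of the core genes weighs each gene alike. It was -1.25 with PE, -1.24 with PE and 10 µM and -1.31 with PE and 50 µM. Without PE it was -1.10 in Vehicle, -1.20 at 10 µM and -1.32 at 50 µM.

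**Figure D4:**
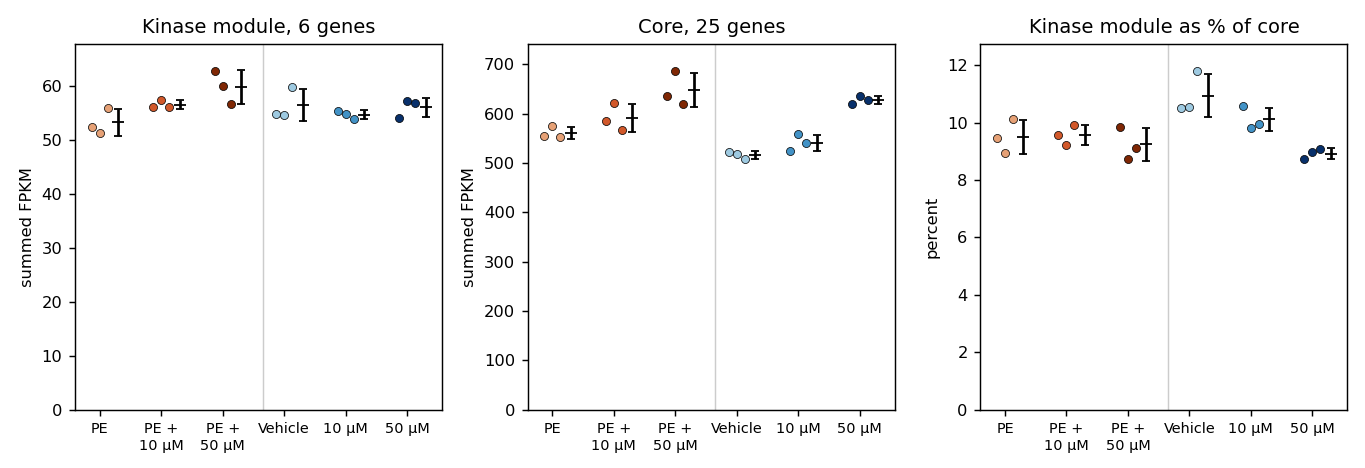
Summed FPKM of the 6 kinase module genes (left) and the 25 core genes (middle), and the first as a percentage of the second (right), per library with the mean and SD of each group of 3. The core sum is 620 to 637 at 50 µM against 507 to 523 in Vehicle, while the kinase sums of these groups overlap.

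The length of the locus, a property that was not used to choose the members, was set beside their changes. For the 29 tested members whose locus is not shared, Spearman's rho across genes between locus length and change was -0.36 for 50 µM against Vehicle (-0.17 over 9478 rows) and -0.36 for PE with 50 µM against PE (-0.15 over all rows). Genes are not independent replicates, and the rho is a description of these genes. At 50 µM alone the 11 higher members had a median locus of 10.8 kb, with none above 25.2 kb, and the 5 lower ones 74.6 kb, although Med11 (1.81 kb) and Med18 (4.47 kb) were lower too. With PE the 11 higher members had a median of 10.8 kb, and Cdk8 (66.4 kb) was among them, while Med14 and Med15 of the lower ones had 117 and 74.6 kb. In PE against Vehicle rho was -0.35 over the members and -0.00 over all rows. At 10 µM it was -0.40 against Vehicle (-0.08 over all rows) and -0.07 with PE against PE (-0.11). For 50 µM against 10 µM it was -0.38 without PE (-0.17) and -0.47 with PE (-0.13). For PE with 10 µM against 10 µM it was -0.11 (-0.03), and for PE with 50 µM against 50 µM -0.22 (0.06). The interaction terms gave 0.27 (-0.04) at 10 µM and 0.18 (0.05) at 50 µM. The difference between the members and all rows was not tested.

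**Figure D5:**
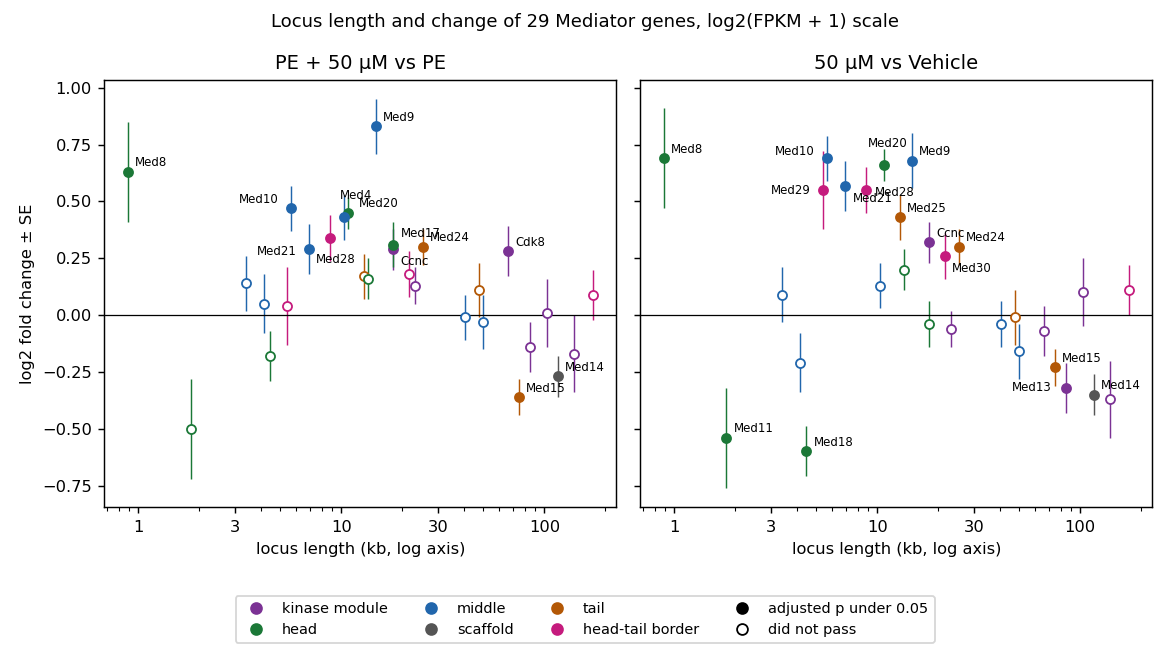
Change on the log2(FPKM + 1) scale (with SE) against locus length in kb on a log axis, for the 29 members whose locus is not shared, in PE with 50 µM against PE (left) and 50 µM against Vehicle (right); filled, named points passed limma's adjusted p under 0.05. Higher members lie mostly under 26 kb, and Med13, Med14 and Med15 lie at the long end below 0.

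Lists of other transcription machinery place the members beside their partners. Among 9 tested subunits of RNA polymerase II, 3 rose and 3 fell in PE with 50 µM against PE, 4 rose and 1 fell in 50 µM against Vehicle, and 4 rose with PE. That is 66.7%, 55.6% and 44.4% of them called, against 56.7%, 60.7% and 30.6% of all rows. Polr2j was 0.59 higher and Polr2b changed by -0.37 in PE with 50 µM (limma adjusted p = 2.21e-05 and 0.000153). Of 14 TFIID genes, 6 rose and 1 fell with PE and 50 µM, and 5 rose and 4 fell at 50 µM alone (50% and 64.3% called, against the same 56.7% and 60.7% of all rows). Taf6 was higher in both, by 0.62 and 0.59, and Taf9b lower, by -0.68 and -0.60. Of 14 genes for the other general initiation factors, 10 rose and 2 fell with PE and 50 µM (median 0.40) and 11 rose and 1 fell at 50 µM alone (median 0.46), with 56.7% and 60.7% of all rows called. Gtf2h4, a subunit of TFIIH, was among the most changed in both, at 0.78 and 0.67 (limma adjusted p = 0.000153 and 0.00047). With PE alone 1 of these 14 rose (Ercc3, 0.24) and 1 fell (Gtf2b, -0.33).

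Cohesin, which loops enhancers to promoters with Mediator, had 4 of 6 tested genes lower in each 50 µM comparison (27.4% of all rows were lower with PE and 50 µM and 30.2% at 50 µM alone), and 3 lower with PE (12.7% of all rows). Rad21 changed by -0.83 with PE and 50 µM and by -0.87 at 50 µM alone (limma adjusted p = 3.77e-07 and 1.88e-07), and Smc3 by -0.29 and -0.72. The Smc3 changes differed between the backgrounds by 0.43 (limma interaction adjusted p = 0.0232). Of 7 tested genes of the super elongation complex, which MED26 helps to recruit, 1 rose and 2 fell with PE and 50 µM, and 1 rose and 3 fell at 50 µM alone, which is 42.9% and 57.1% called against 56.7% and 60.7% of all rows. Eaf1 was the riser in both, at 0.55 and 0.37.

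Transcription factors known as substrates of the CDK8 kinase were the last list, with 14 genes tested. In PE with 50 µM against PE 2 rose and 9 fell (median -0.36), at 50 µM alone 1 rose and 7 fell (median -0.28), and with PE 2 rose and 3 fell. The shares called were 78.6%, 57.1% and 35.7%, against 56.7%, 60.7% and 30.6% of all rows. E2f1 changed by -1.66 with PE and 50 µM and by -2.12 at 50 µM alone, and Myc by 1.63 and 1.46 (limma adjusted p at most 0.000571 for these 4). Srebf2 and Srebf1, whose products MED15 binds, rose with PE by 1.04 and 0.80 (limma adjusted p = 7.04e-05 and 4.36e-05), and their changes with 50 µM were lower in PE than in Vehicle by -0.79 and -0.74 (limma interaction adjusted p = 0.0287 and 0.00736). Stat3 was already lower at 10 µM, by -0.72 without PE and -0.49 with PE (limma adjusted p = 6.02e-05 and 0.00138). These are transcript levels, and phosphorylation was not measured.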

How the data were processed

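The authors deposited 1 table of FPKM values with a column for each of 18 libraries. Per the submitters' processing notes, the tools were Bowtie2 and Cufflinks and the genome build was rn5. Their versions, the annotation, filters and use of strand are not given in the sources used here. Its 17303 rows had a floor of 0.01 FPKM, at which 27.4% of values stood. Total reads are unknown, so no counting interval is given. Positions of loci come from the deposited table, and promoter sequences from RefSeq (GRCr8).

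FPKM was converted to log2(FPKM + 1), which understates changes of low genes. The 10478 rows that reached 1 FPKM in 3 or more libraries were fitted with limma 3.58.1 in R 4.3.3 (6 group means, a trend of variance on level, 12 residual degrees of freedom). Benjamini-Hochberg adjustment ran over all rows of a comparison, and calls are adjusted p-values under 0.05. The code was tested on simulated data. Python 3.11.15, pandas 2.3.3, numpy 2.4.6 and matplotlib 3.10.9 made tables and figures.

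The replicate numbers paired the samples: deviations from group means correlated with r from 0.213 to 0.587 in 45 pairs of libraries with the same number, and from -0.462 to 0.0949 in 90 pairs with different numbers. Deviations within a group cancel out, so the second range follows in part from the first and is no separate evidence. What a number marks is not given. A fit with the number as a block (10 residual degrees of freedom) was therefore run beside that without it.

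The members and lists were chosen with earlier results of these data known. Library values are given for the kinase module genes and, in each of 5 comparisons, for the 3 called core members with the largest rise and the 3 with the largest fall, and for Med20 and Med29, which were added after their values were seen. Genes outside the complex are named when called, at most 2 a list and comparison. Alternatives were no filter, quantile normalization, median-ratio scaling, the block, the compared groups only, another pseudocount and leaving out each library.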

Additional observations from a re-analysis of the deposited data

Results flagged for a closer look

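A pair of core subunits differed in their response to 50 µM Senexin A between cells with and without PE once the replicate number was a block: Med16 by -0.37 (limma adjusted p = 0.0268) and Med29 by -0.51 (limma adjusted p = 0.0058). In that fit 16.1% of all rows passed, a larger share than that of the Mediator genes. Without the block limma gave adjusted p-values of 0.0558 for Med16 and 0.234 for Med29, neither past the threshold. Med16 also passed without the block after median-ratio scaling (0.0494) and without PE replicate 3 (0.0205). The locus of Med16 overlaps other rows of the table, and how far reads of those rows enter its value was not tested.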

How the results depend on the processing

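Depth is unknown, the replicates may be technical, and 3 libraries a group limit every call. Neither quantile normalization nor median-ratio scaling moved the median change of all rows by more than 0.1. Quantile normalization took the share of higher rows among all rows called with PE to 47.7%, against 58.5% without it; the Mediator genes then split into 3 higher and 2 lower. Its effect on 50 µM against 10 µM was 8 higher and 0 lower, against 7 and 3.

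The number of Mediator genes called differed by more than 1.5 times as follows. With no filter it was 0 at 10 µM against Vehicle, 3 for PE with 50 µM against PE with 10 µM and 3 for PE with 50 µM against 50 µM. With quantile normalization it was 2 at 10 µM against Vehicle and 7 for PE with 10 µM against 10 µM. In the compared groups only it was 1 for PE with 10 µM against PE and 1 for PE with 50 µM against 50 µM. With the replicate block it was 5 for PE with 10 µM against PE, 12 for PE with 10 µM against 10 µM, 11 for PE with 50 µM against 50 µM and 2 for the interaction at 50 µM, and with median-ratio scaling the last was 1. Each replicate number stands once in every group, so the block leaves each change as it was and can alter only its p-value. The block lost none of the Mediator calls made without it. The difference in mean kinase to core log2 ratio without Ccnc was -0.30 for PE and -0.47 for 50 µM, each against Vehicle. The mean log2(FPKM + 1) of the kinase module minus that of the core was -1.25 with PE, -1.32 at 50 µM and -1.10 in Vehicle.

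With each library left out in turn, the number of Mediator genes called ranged from 3 to 7 for PE, 0 to 1 for 10 µM and 12 to 15 for 50 µM against Vehicle, 0 to 3 for PE with 10 µM and 9 to 14 for PE with 50 µM against PE, 3 to 7 for PE with 50 µM against PE with 10 µM, 6 to 9 for 50 µM against 10 µM, 4 to 6 for PE with 10 µM against 10 µM, 1 to 6 for PE with 50 µM against 50 µM, 0 to 0 for the interaction at 10 µM and 0 to 1 at 50 µM. The difference in mean kinase to core log2 ratio ranged from -0.25 to -0.15 for PE, -0.14 to -0.06 for 10 µM and -0.32 to -0.24 for 50 µM against Vehicle. Against PE it ranged from -0.03 to 0.06 for PE with 10 µM and from -0.09 to 0.01 for PE with 50 µM.

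Changes of kinase module genes that had no call took the other sign in a few fits, with the cause not tested. Med12 at 50 µM against Vehicle was 0.11 after quantile normalization. With each library left out, Med12 at 10 µM against Vehicle ranged from -0.04 (without Vehicle replicate 2) to 0.06, Cdk8 from -0.14 to 0.03 for PE (0.03 without PE replicate 2) and from -0.07 to 0.03 for 10 µM (0.02 without Vehicle replicate 3 and 0.03 without 10 µM replicate 3). Med12l against PE ranged from -0.10 to 0.11 at 10 µM and from -0.10 to 0.12 at 50 µM, below 0 without PE replicate 2 (-0.09 at both doses), PE with 10 µM replicate 1 (-0.10) or PE with 50 µM replicate 3 (-0.10).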
